A study of Mus musculus with 6 samples.

Results

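The genes examined here write, copy, remove or protect DNA methylation. Membership was set by name, and the choice was made with earlier results of these data known. The members were Dnmt1, Dnmt3a, Dnmt3b, Dnmt3l, Uhrf1, Tet1, Tet2, Tet3, Tdg and Dppa3, 10 genes in all. Of these, 9 had an array row assigned to them alone, out of 22180 genes measured that way. Tdg, which encodes the glycosylase that cuts out oxidised methylcytosine, was annotated only together with its pseudogenes and is given no value.

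The samples were cultures of Dgcr8-/- ESCs, embryonic stem cells of the mouse. Dgcr8 works with the Drosha nuclease, and without it canonical miRNAs are not made. All 6 samples carried this deletion, and a wild type sample was not analysed here. A control hairpin was present in 3 samples, and the other 3 expressed miR-302, which the labels call a hairpin (sh-miR-302) in one field and a mimic in another. Which members of the miR-302 family were expressed, the parental line, the number of clones and the culture medium are not given in the labels. Per the series' design text, the 3 samples of a group are biologically independent.

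DNA methylation is placed on cytosine, mostly in CpG dinucleotides. Dnmt3a and Dnmt3b methylate new sites, and Dnmt3l is a related protein without catalytic activity that stimulates both. Dnmt1 copies the pattern to the new strand after replication and is brought to hemimethylated sites by Uhrf1. The TET enzymes oxidise methylcytosine, which base excision by Tdg can then replace with cytosine. Dppa3, also called Stella, protects methylation of the maternal genome in the early embryo from TET oxidation and keeps Uhrf1 away from chromatin in oocytes. ESCs express most of this machinery, and shifts between the naive and the primed state are known to change Dnmt3b and Dnmt3l levels.

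Strands of the miR-302 family are shown first, without knowing which of them the cells expressed. The mature 3p strands of miR-302b, miR-302c and miR-302d (RefSeq, GRCm38.p6, chromosome 3) are given with bases 2 to 8, the seed that pairs with targets, in capitals.
mmu-miR-302b-3p: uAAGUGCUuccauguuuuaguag
mmu-miR-302d-3p: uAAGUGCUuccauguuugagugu
mmu-miR-302c-3p: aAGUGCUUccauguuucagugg
The listed strands of miR-302b and miR-302d share the seed AAGUGCU. The miR-302c strand is listed from the next base on, so that bases 2 to 8 read AGUGCUU, 1 base further along the same run. The strand of miR-302a is not shown.

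With miR-302, Dnmt3b and Dppa3 rose 3.02-fold and 2.47-fold, and Dnmt1 fell slightly. Of the 9 measured genes these 2 were higher, 1 was lower and 6 did not pass the test (limma, adjusted p under 0.05 over all 22180 genes). Among all genes tested, 16.4% were called, 7.18% higher and 9.25% lower. Called genes with a change of at least 2-fold made up 1.17% of all genes on the higher side and 1.15% on the lower side. The median log2 change was −0.16 over the 9 genes and 0.01 over all genes. One array bears on most of these results. In miR-302 replicate 1, 303 genes differed by more than 1 log2 unit from the mean of the other miR-302 arrays, against 49 and 51 for replicates 2 and 3 and 8 to 20 for the control arrays. Without that array, 3 members were higher and 5 lower, while 24.3% of all genes were called.

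**Figure D1:**
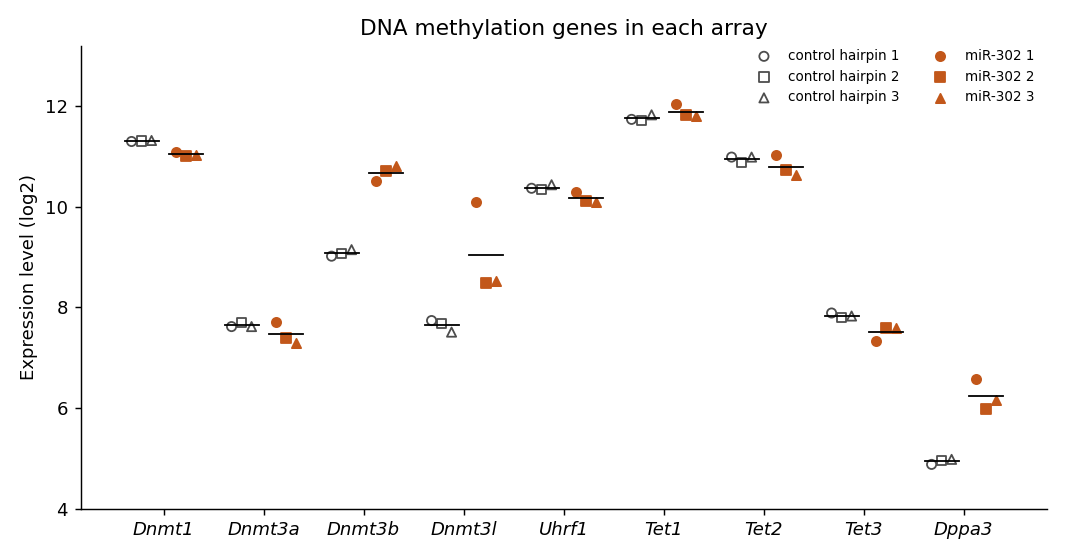
Expression level (log2, y axis) of the 9 measured genes in every array; open grey symbols are control hairpin samples, filled orange symbols miR-302 samples, symbol shape gives the replicate number and black bars are group means. Dnmt3b and Dppa3 lie apart between the groups, and miR-302 replicate 1 lies well above replicates 2 and 3 for Dnmt3l (10.10 against 8.49 and 8.52).

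Of the enzymes that methylate new sites, Dnmt3b was the member that changed most clearly. Its log2 level was 9.02, 9.08 and 9.15 in the 3 control samples and 10.52, 10.71 and 10.81 with miR-302. The groups were separated by a gap of 1.37 log2 units, and the lowest miR-302 value belonged to replicate 1. The log2 change was 1.60 ± 0.09 (SE, n = 3 per group; limma, adjusted p = 0.000349), which ranked 50 among all genes by p. The call held in all 6 fits that left out 1 array, with log2 changes from 1.53 to 1.68.

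Dnmt3a, the paralogue with the same activity, behaved differently. Its level was 7.62, 7.70 and 7.62 in control samples and 7.72, 7.39 and 7.30 with miR-302. The groups overlapped: miR-302 replicate 1 lay just above the control range and the other miR-302 samples below it. This gave a log2 change of −0.18 ± 0.12 (SE; limma, adjusted p = 0.374). Without miR-302 replicate 1 it was −0.30 and passed the test (limma, adjusted p = 0.0270). The per-array difference Dnmt3b minus Dnmt3a went from 1.44 ± 0.08 (SD, n = 3) in control samples to 3.21 ± 0.37 with miR-302, so that the change of Dnmt3b exceeded that of Dnmt3a by 1.77 ± 0.22 (SE) on the log2 scale. These differences did not overlap between the groups. The exact permutation test gave p = 0.1, the smallest that 3 against 3 samples allow, and an adjusted p of 0.175 over the 7 pairs of members compared.

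Dnmt3l, the regulator without catalytic activity, was above the control range in every miR-302 sample but did not pass the test. Its level was 7.74, 7.68 and 7.51 in control samples and 10.10, 8.49 and 8.52 with miR-302. Replicates 2 and 3 stood about as far above the controls as each other, and replicate 1 stood far above both. The log2 change was 1.39 ± 0.42 (SE; limma, adjusted p = 0.0671), with a 95% interval from 0.40 to 2.38. Without miR-302 replicate 1 the change was smaller, 0.86, and passed the test (limma, adjusted p = 0.00184). The distance of 1.60 between miR-302 replicate 1 and the mean of replicates 2 and 3 ranked 67 in size among all genes. The difference Dnmt3b minus Dnmt3l was 1.44 ± 0.18 (SD, n = 3) and 1.64 ± 1.06, overlapping between the groups (exact permutation test, p = 0.9). The difference Dnmt3a minus Dnmt3l went from 0.00 ± 0.12 (SD, n = 3) to −1.57 ± 0.71 without overlap (exact permutation test, p = 0.1, adjusted p = 0.175).

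The genes that copy methylation moved little. Dnmt1 was 11.30, 11.31 and 11.32 in control samples and 11.09, 11.01 and 11.04 with miR-302. All miR-302 values lay below all control values, and the arrays of each group agreed closely. Dnmt1 fell by 0.26 on the log2 scale, with a SE of 0.06 and a 1.20-fold lower level (limma, adjusted p = 0.0354). The call was kept when miR-302 replicate 1 was left out and lost when any of the other 5 arrays was (adjusted p 0.104 to 0.118). Uhrf1 was 10.37, 10.34 and 10.44 in control samples and 10.29, 10.11 and 10.10 with miR-302. Its groups did not overlap either, but by only 0.05 log2 units. Uhrf1 changed by −0.22 ± 0.08 (SE, log2; limma, adjusted p = 0.124), and −0.28 without miR-302 replicate 1, which passed the test (adjusted p = 0.0296). The difference Dnmt1 minus Uhrf1 was 0.93 ± 0.05 (SD, n = 3) in control samples and 0.88 ± 0.07 with miR-302, an unequal change of −0.05 ± 0.05 (SE; exact permutation test, p = 0.5).

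**Figure D2:**
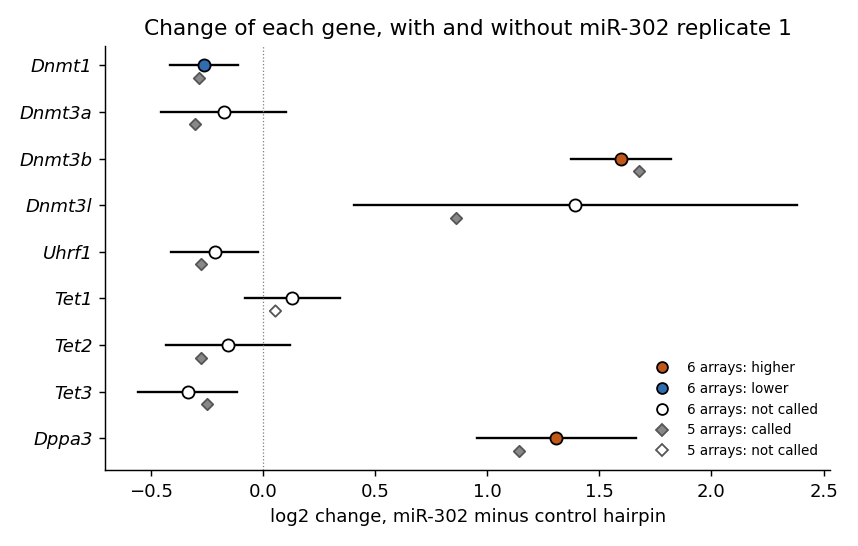
log2 change of each gene (x axis, miR-302 minus control hairpin); circles show the fit to 6 arrays with its 95% interval (limma) and diamonds the fit without miR-302 replicate 1, filled where the adjusted p was under 0.05. Of the fits shown, Dnmt3b and Dppa3 were called in both at changes above 1, while Dnmt3a, Dnmt3l, Uhrf1, Tet2 and Tet3 were called only in the fit to 5 arrays.

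None of the TET genes passed the main test with 6 arrays, though Tet3 did in some of the alternatives given below. Tet1, an oxidase abundant in ESCs, was 11.74, 11.71 and 11.83 in control samples and 12.04, 11.82 and 11.81 with miR-302. Only replicate 1 lay above the control range, and the log2 change was 0.13 ± 0.09 (SE; limma, adjusted p = 0.386). Tet1 was also not called in any of the 6 leave-one-out fits. Tet2 was 10.99, 10.89 and 10.99 in control samples and 11.04, 10.73 and 10.63 with miR-302. Here replicate 1 again lay above the control range, and replicates 2 and 3 lay below it. The log2 change of Tet2 was −0.16 ± 0.12 (SE; limma, adjusted p = 0.425), and −0.28 without miR-302 replicate 1 (adjusted p = 0.0413).

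Tet3, the TET enzyme of the oocyte and zygote, had all miR-302 values below all control values. It was 7.89, 7.80 and 7.83 in control samples and 7.33, 7.59 and 7.59 with miR-302, with replicate 1 the lowest. Tet3 changed by −0.34 ± 0.09 (SE, log2; limma, adjusted p = 0.0525), just short of the threshold, and −0.25 without miR-302 replicate 1 (adjusted p = 0.0388). Among the TET genes the difference Tet1 minus Tet2 went from 0.80 ± 0.05 (SD, n = 3) to 1.09 ± 0.09, and Tet1 minus Tet3 from 3.92 ± 0.08 to 4.39 ± 0.28. Neither overlapped between the groups (exact permutation test, p = 0.1 and adjusted p = 0.175 for both). The difference Tet2 minus Tet3 went from 3.12 ± 0.04 (SD, n = 3) to 3.30 ± 0.36 and overlapped (exact permutation test, p = 0.8).

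Dppa3, also called Stella, was the other gene that rose. It was 4.88, 4.96 and 4.98 in control samples and 6.58, 5.99 and 6.17 with miR-302. The groups were separated by 1.01 log2 units, with replicate 1 the highest. The log2 change was 1.31 ± 0.15 (SE, n = 3 per group; limma, adjusted p = 0.00295). The call held in all 6 fits that left out 1 array, with log2 changes from 1.14 to 1.44. Its control level lay below the median of all gene means, 6.16, and detection calls were not used here, so how much of it was background cannot be told. The other measured Dppa genes, which share the name (developmental pluripotency associated) rather than a common function, gave no call in either direction. Dppa1 was 3.47, 3.60 and 3.52 in control samples and 3.72, 4.64 and 4.45 with miR-302 (limma, adjusted p = 0.0713, and 0.00100 without miR-302 replicate 1). Dppa2 and Dppa4 changed by 0.04 and 0.01 and Dppa5a by −0.19, without a call. The sign of Dppa2 turned without miR-302 replicate 1 and with array weights, and that of Dppa4 in both of these settings, without control hairpin replicate 1 or 3, and with each array centred on its median.

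In all, 6 of the 9 measured genes had groups that did not overlap, 3 of them higher and 3 lower, against 35.8% of all genes, 16.8% higher and 19.0% lower. In miR-302 replicate 1, each of the 9 genes had the highest or the lowest value of its group, as did 79.7% of all genes, and 7 had the highest, against 40.8% of all genes. Replicates 2 and 3 lay within 0.2 log2 units of each other for all 9 and for 76.0% of all genes.

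The DNA that these enzymes act on was described at the members' own start sites, because Dnmt3b and Dnmt3l, both higher in every miR-302 sample, differ there. RefSeq windows of 300 bases (GRCm38.p6, 250 bases before to 50 after an annotated start) were found for 9 members in 16 windows, Tdg among them and Dppa3 not. CpG dinucleotides, the sites of methylation, are in capitals in the windows shown.
Dnmt3b, chr2:153649199-153649498, plus strand: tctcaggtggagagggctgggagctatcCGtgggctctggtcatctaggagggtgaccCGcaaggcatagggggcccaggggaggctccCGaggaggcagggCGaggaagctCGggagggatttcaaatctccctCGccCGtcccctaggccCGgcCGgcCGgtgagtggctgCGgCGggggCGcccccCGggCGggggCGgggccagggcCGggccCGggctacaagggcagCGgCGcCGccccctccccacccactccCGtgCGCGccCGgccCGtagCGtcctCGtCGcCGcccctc
Dnmt3l, start 1 of 3, chr10:78042037-78042336, plus strand: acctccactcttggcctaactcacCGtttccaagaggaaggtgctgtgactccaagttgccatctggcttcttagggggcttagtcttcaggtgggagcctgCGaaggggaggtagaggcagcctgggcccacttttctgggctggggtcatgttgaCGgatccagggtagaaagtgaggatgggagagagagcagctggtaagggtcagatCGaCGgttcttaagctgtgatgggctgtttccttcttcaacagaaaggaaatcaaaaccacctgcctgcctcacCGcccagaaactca
Dnmt1, start 3 of 3, chr9:20952574-20952873, minus strand: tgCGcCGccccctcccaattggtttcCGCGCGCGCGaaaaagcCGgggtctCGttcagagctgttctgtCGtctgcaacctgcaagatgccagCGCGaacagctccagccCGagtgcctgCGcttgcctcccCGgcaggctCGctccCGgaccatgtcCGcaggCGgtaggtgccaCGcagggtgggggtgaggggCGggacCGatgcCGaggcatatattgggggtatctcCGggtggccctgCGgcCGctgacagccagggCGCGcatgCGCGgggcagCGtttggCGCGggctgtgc
The Dnmt3b window held 30 CpGs. The 3 Dnmt3l windows held 6, 4 and 3, and the median of all 32851 windows was 7. The observed number was 0.69 of that expected from base composition for Dnmt3b, and 0.27, 0.22 and 0.11 for the Dnmt3l windows. The 3 Dnmt1 windows held 2, 12 and 33 CpGs. Tet2 had 57 CpGs, Tet3 22 and Tet1 17, and the Dnmt3a windows 46, 47 and 18. No methylation was measured in this series, so the state of these sites is not known here. The E2F motif TTTGGCGC, searched on both strands, was found in 1 of the 16 windows, the Dnmt1 window shown, and in 0.514% of all windows. The other E2F motif searched, TTTCCCGC, was in none of the 16 and in 1.07% of all windows. The GC box GGGCGG was in 12 of the 16 member windows and in 35.7% of all windows, and the octamer ATGCAAAT (1.74% of all windows) and TATAAA (13.6%) were in none of the member windows. The member windows are not independent, since several belong to the same gene and Dnmt3a windows 1 and 2 overlap. Most of them also held more CpGs than the median window, and base composition was not matched in this comparison. In the member windows no match of one motif overlapped a match of another.

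The genes whose pattern over the 6 arrays was most like that of a called member were found by the smallest distance between centred log2 values. Only genes with a mean at or above that of the median gene were searched, and Dppa3 itself lies below it. Similar changes and a similar order of arrays follow from this choice. For Dnmt3b they were Slc26a2, a sulfate transporter gene, Snai3, a Snail family gene, and Plk3, a polo-like kinase gene, at distances of 0.13, 0.13 and 0.20 and with log2 changes of 1.53, 1.66 and 1.53. For Dppa3 they were the laminin gene Lama1, the arginine deiminase gene Padi2 and the glypican gene Gpc4, at distances of 0.23, 0.25 and 0.28. Like Dppa3, and as a choice by pattern favours, they had their highest value in miR-302 replicate 1 (Lama1 8.23 against 7.62 and 7.66). For Dnmt1 they were Plekha5, Spg21 and Ddhd1, at distances of 0.05 each, with log2 changes of −0.29, −0.26 and −0.27.

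Of 8 measured genes that read methylation, Mbd3 was higher, Mbd4 was lower and 6 were not called, with a median log2 change of 0.14. Mbd3, a subunit of the NuRD repressor complex, rose by 0.31 ± 0.08 (SE; limma, adjusted p = 0.0387). Mbd4, a glycosylase that removes thymine from T:G mismatches at CpG sites, was 8.44, 8.26 and 8.25 in control samples and 7.95, 7.62 and 7.41 with miR-302 (log2 change −0.66 ± 0.14 SE; limma, adjusted p = 0.0246). All its miR-302 values lay below the controls. Mbd1 (0.31), Uhrf2, the paralogue of Uhrf1 (0.27), and the zinc finger gene Zbtb38 (−0.27) had groups that did not overlap either but were not called. In all, 5 of the 8 did not overlap, against 35.8% of all genes. Both calls were lost when an array other than miR-302 replicate 1 was left out, and without that replicate 3 were higher and 1 lower.

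Among the base excision partners of active demethylation was Gadd45g, the gene with the largest log2 change of all the pathway lists. Of 12 measured, Gadd45g and Gadd45b were higher, Neil3 and Apobec1 were lower and 8 were not called (median −0.04; 2 higher and 4 lower without miR-302 replicate 1, where Parp1 and Polb were added). Gadd45g, a stress-inducible gene also reported to promote demethylation, was 5.70, 5.93 and 5.87 in control samples and 7.61, 8.14 and 8.00 with miR-302 (log2 change 2.08 ± 0.15 SE; limma, adjusted p = 0.000608). Gadd45b was 9.11, 9.06 and 8.97 in control samples and 9.44, 10.25 and 10.41 with miR-302 (log2 change 0.99 ± 0.24 SE; adjusted p = 0.0354). Replicate 1 was the lowest miR-302 sample for both, unlike for Dnmt3l and Dppa3. The cytidine deaminase gene Apobec1 was 8.95, 8.97 and 9.00 in control samples and 8.01, 8.10 and 8.15 with miR-302 (−0.89 ± 0.07 SE), and the glycosylase gene Neil3 changed by −0.78 ± 0.08 (SE). The calls of Gadd45g, Apobec1 and Neil3 held in each of the 6 leave-one-out fits, and that of Gadd45b only without miR-302 replicate 1.

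Among chromatin factors that target or protect methylation, 1 of 17 was higher, 2 were lower and 14 were not called (median −0.12; 2 higher and 5 lower without miR-302 replicate 1). Cdca7, which activates the remodeller Hells, fell by 0.47 on the log2 scale (SE 0.07; limma, adjusted p = 0.00586), a call that held in each leave-one-out fit. Morc3, a chromatin ATPase gene, changed by −0.48 ± 0.09 (SE) and the H3K9 methyltransferase gene Setdb1 by 0.34 ± 0.06 (SE). Their calls were kept in 1 and 2 of the 6 leave-one-out fits. Kdm1b, a histone demethylase gene needed for maternal imprints, changed by −0.26 ± 0.07 (SE) and was not called (adjusted p = 0.0586).

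**Figure D3:**
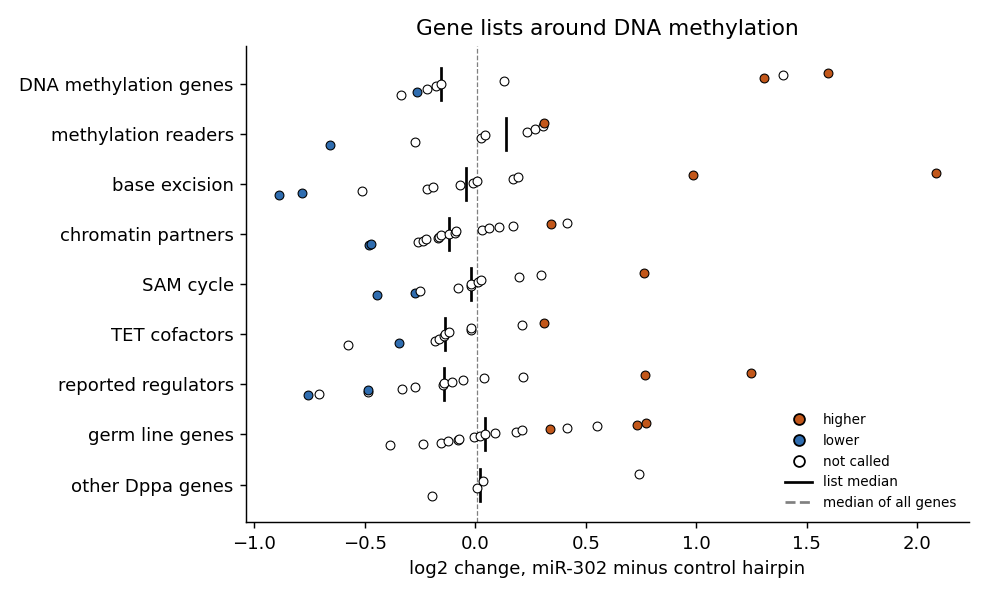
log2 change (x axis, miR-302 minus control hairpin) of every measured gene of each list, 1 point a gene, coloured where the adjusted p was under 0.05 (limma over all genes); black bars are list medians and the dashed line is the median of all genes, 0.01. Called genes lie on both sides in most lists, and the called genes Gadd45g (2.08), Dnmt3b (1.60) and Dppa3 (1.31) lie farthest to the right.

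Genes of the S-adenosylmethionine cycle, which supplies the methyl group, gave 1 higher, 2 lower and 8 not called of 11 (median −0.02; 1 higher and 3 lower without miR-302 replicate 1). The glycine decarboxylase gene Gldc rose from 8.48, 8.53 and 8.47 to 8.97, 9.37 and 9.43, a log2 change of 0.76 ± 0.13 (SE; limma, adjusted p = 0.00987). The serine hydroxymethyltransferase genes Shmt2 and Shmt1 fell by 0.44 (SE 0.07) and 0.27 (SE 0.06) on the log2 scale. The calls of Gldc and Shmt2 held in each leave-one-out fit, and that of Shmt1 only without miR-302 replicate 1. Mtrr, which reactivates methionine synthase, changed by 0.20 without a call. Of 11 genes that supply TET cofactors or bind TET enzymes, Ogt, the O-GlcNAc transferase that associates with TET proteins, was higher by 0.31 ± 0.07 (SE; adjusted p = 0.0239), Idh1, which makes the TET cosubstrate 2-oxoglutarate, was lower by 0.35 (log2 change −0.35 ± 0.09 SE; adjusted p = 0.0424), and 9 were not called (median −0.14). Each call was kept only when miR-302 replicate 1 was the array left out, where 2 were higher and 2 lower. Idh2 was 11.36, 11.38 and 11.29 in control samples and 11.15, 10.56 and 10.60 with miR-302 (adjusted p = 0.0543, and 0.00101 without miR-302 replicate 1). The vitamin C transporter gene Slc23a2 changed by 0.21 without a call.

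Of 14 genes reported to regulate Dnmt3 or TET genes in ESCs, 2 were higher, 2 lower and 10 not called (median −0.14; 2 higher and 6 lower without miR-302 replicate 1). Rbl2, a pocket protein reported to repress the Dnmt3 genes in miRNA-deficient ESCs and a reported target of miRNAs with this seed, was 8.98, 9.00 and 8.91 in control samples and 8.53, 8.11 and 7.98 with miR-302 (log2 change −0.76 ± 0.14 SE; limma, adjusted p = 0.0152). Its miR-302 replicate 1 lay nearest to the controls, and its call was kept in 2 of the 6 leave-one-out fits. A link between Rbl2 and the Dnmt3 genes was not tested. The related Rbl1 changed by −0.48 ± 0.07 (SE; adjusted p = 0.00729). Lin28a, an RNA-binding protein gene, rose by 1.25 ± 0.07 (SE; adjusted p = 0.000349), and the primed state factor gene Otx2 by 0.77 ± 0.14 (SE; adjusted p = 0.0150), with calls kept in 6 and 3 of those fits. Other primed state genes, counted below as primed epiblast markers, went both ways. Zic2 and Zic5 changed by −1.03 and −0.84, with calls kept in all 6 fits. Fgf5, Pou3f1 and Lef1 were higher, with calls kept in 2 fits each. Prdm14, which represses Dnmt3b and Dnmt3l in naive ESCs, was 9.57, 9.72 and 9.60 in control samples and 9.56, 8.62 and 8.59 with miR-302. Replicate 1 lay just below the control range and the other miR-302 samples about 1 log2 unit below it. The log2 change was −0.71 ± 0.25 (SE; adjusted p = 0.112), and −1.02 without that array (adjusted p = 0.000598).

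Germ line genes whose promoters are reported to be silenced by DNA methylation in ESCs were listed too, with earlier results of these data known. Several were not low in control samples (mean log2 level 9.62 for Stag3, 8.51 for Syce1 and 8.25 for Tex11), while others were (3.19 for Taf7l and 3.99 for Asz1). No methylation was measured, so their levels cannot stand for promoter methylation here. Ddx4, Taf7l and Tdrd1 were higher, and the other 14 of 17 measured were not called (median 0.04). The germ cell helicase gene Ddx4 was 8.70, 8.93 and 8.89 in control samples and 10.04, 9.34 and 9.33 with miR-302 (log2 change 0.73 ± 0.20 SE; limma, adjusted p = 0.0499). With all arrays, its call was lost under median centring (limma, adjusted p = 0.0574), every row tested on its own (0.0507) and the replicate block (0.103). It was kept in the other fits to all arrays. Taf7l and Tdrd1, genes of a testis transcription factor subunit and of the piRNA pathway, were higher by 0.77 ± 0.20 and 0.34 ± 0.08 (SE). Dpep3 changed by 0.21 without a call. Without miR-302 replicate 1, 3 were higher and 3 lower, and without any 1 of the other arrays at most 1 was called.

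This list also set miR-302 replicate 1 apart. In that array 9 of the 17 genes lay more than 0.5 log2 units above the mean of replicates 2 and 3 and none lay as far below it, while 3.98% of all genes lay as far above and 4.81% as far below. Trophectoderm markers lay the other way in the same array, with 6 of 11 (Elf5, Krt7, Krt8, Krt18, Hand1 and Ascl2) more than 0.5 log2 units below that mean and none as far above. Dazl, an RNA-binding protein gene of germ cells chosen for mention after its values were seen, was 6.11, 6.34 and 6.18 in control samples and 8.11, 5.34 and 5.31 with miR-302. Its replicate 1 lay above every control and replicates 2 and 3 below every control. Mael and Slc25a31, also named after their values were seen, had 8.97 and 6.76 in replicate 1 against 7.90 and 7.87, and 5.58 and 5.70, in the other miR-302 samples. Among the members, Dnmt3l was the 1 gene of 9 as far above in replicate 1, and Dppa3 lay 0.50 above. The origin of this difference between arrays was not tested.

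**Figure D4:**
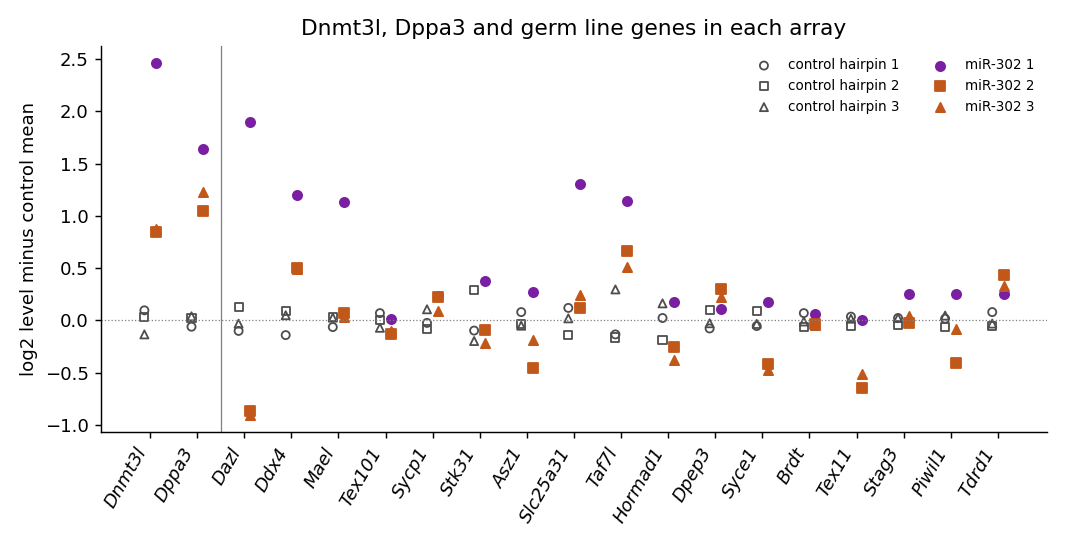
log2 level minus the control mean (y axis) of Dnmt3l, Dppa3 and the 17 measured germ line genes in every array; open grey symbols are control samples, purple circles miR-302 replicate 1, and orange squares and triangles miR-302 replicates 2 and 3. The purple circles stand above the other miR-302 samples for Dnmt3l, Dazl, Mael and Slc25a31, and replicates 2 and 3 lie close together.

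Cell type markers were set beside these changes. The 10 ESC markers, among them Pou5f1, Nanog and Sox2, had mean log2 levels of 10.60 to 10.64 in control samples and 10.45 to 10.78 with miR-302, highest in replicate 1, and none was called. Without that array 3 of the 10, Sox2, Zfp42 and Fgf4, were lower. Of 11 trophectoderm markers 8 were higher and none lower, with mean levels of 6.17 to 6.32 in control samples and 7.33 to 8.05 with miR-302, lowest in replicate 1, and 11 were higher without that array. Of 10 primitive endoderm markers 4 were higher and 2 lower (mean levels 5.70 to 5.77 and 6.13 to 6.21), and of 8 primed epiblast markers 4 were higher and 2 lower (7.30 to 7.37 and 7.38 to 7.53). Without miR-302 replicate 1, 5 primitive endoderm and 5 primed epiblast markers were higher and 2 of each lower. Without any 1 of the other arrays, 3 primitive endoderm markers were higher and 1 lower, and 0 to 3 primed epiblast markers were higher and 2 lower. Of 9 fibroblast feeder markers none was higher and Thy1 was lower (mean levels 5.22 to 5.26 and 5.24 to 5.40). Of the feeder markers, 1 rose and 2 fell in the fit without miR-302 replicate 1, and none fell when any other array was left out. The part of other cell types in the changes of Dnmt3b, Dppa3 and Dnmt3l was not tested. In these bulk samples, more cells of a type and more RNA per cell cannot be told apart.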

How the data were processed

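Total RNA of 6 samples was measured on single-colour arrays with biotin-labelled targets, per the labels. RMA was used by the authors, as the submitters' processing notes say. The log base of the deposited values is not stated, and they were read as log2, which RMA gives. Because RMA equalises the arrays, a change common to all genes is not visible. Scanner intensities, array dates and detection calls were not used here, and the number of arrays limits the precision.

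Groups and replicate numbers came from the sample titles. Rows were named through the platform annotation, rows of a single gene were kept, and the row with the highest mean stood for a gene. Dgcr8 has no such row, so its deletion was not checked here. The test was a two-sided moderated test across genes (limma 3.58.1, R 4.3.3; lmFit, eBayes), with Benjamini-Hochberg adjustment over 22180 genes and a threshold of 0.05. The fit was tested on simulated data, where it called 43.4% of 1.5-fold, 80.7% of 2-fold and 95.5% of 4-fold changes. Small changes were often missed there and can be missed here. The simulation gave every array the same noise, unlike these data, where miR-302 replicate 1 stood apart. It also changed far fewer genes and gave 146 calls, against 3643 in these data. With fewer changed genes the adjustment is stricter, so these percentages do not describe the test on these data. Adjusted p-values of genes come from this fit. Pairs of members were compared by their per-array log2 difference with a two-sided exact permutation test.

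The members and lists were chosen with earlier results of these data known. Named genes are the members, Rbl2, Lin28a, Prdm14, from each list up to 4 genes by smallest p, and the 3 genes of most similar pattern, among genes at or above the median level, for each called member. The alternatives were the replicate block, each array left out, a level filter, an intensity trend with a robust prior, median centring, quantile normalization, other rules for rows, and array weights.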

Additional observations from a re-analysis of the deposited data

How the results depend on the processing

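The 9 measured members kept the sign of their change under every alternative run. Dnmt3b and Dppa3 were called higher under each, except that Dppa3 lies below the level filter. Dnmt3l was called higher with the level filter (limma, adjusted p = 0.0404), with array weights (adjusted p = 0.0244) and without miR-302 replicate 1, and under no other alternative. Tet3 was called lower with the level filter (limma, adjusted p = 0.022), an intensity trend and robust prior (0.034), median centring (0.039) and array weights (0.030). It was also called without miR-302 replicate 1, and under no other alternative. Uhrf1 was called lower with the intensity trend and robust prior (limma, adjusted p = 0.0430), with array weights (0.0275) and without that replicate, and under no other alternative. The number of members called lower, 1 with all arrays, was 0 with the replicate number as a block, 2 with the filter at the median level, 2 with arrays centred on their median, 3 with an intensity trend and robust prior, 3 with array weights, and 0 to 5 with 1 array left out. Over all genes, 1592 were called higher and 2051 lower. The replicate block gave 964 and 1329, and leaving out 1 array 685 to 2484 and 1043 to 2911, the highest counts without miR-302 replicate 1. Array weights, which gave that array a weight of 0.28 against 1.15 to 1.48 for the others, called 2617 genes higher. The block changed the call of 1 member, Dnmt1 (limma, adjusted p = 0.0975). Deviations of same-numbered arrays from their group means correlated by 0.02, 0.02 and 0.01 over genes, and 3 of the 6 arrays correlated best with an array of another number. With so few arrays these values do not show a pairing by number and cannot exclude one.

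Signs turned for values near 0. Dppa2 ranged from −0.10 to 0.11 with 1 array left out and was −0.066 with array weights, and Dppa4 ranged from −0.08 to 0.07, and was −0.013 after median centring and −0.050 with array weights. The unequal change of Dnmt3b and Dnmt3l ranged from −0.12 to 0.81, and that of Tet2 and Tet3 from −0.027 to 0.31, with 1 array left out. The cause of these changes was not tested. Low levels limit Dppa1, several germ line genes, and Dppa3 in control samples. How near these levels lie to background was not determined, as detection calls were not used.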
